A study of Homo sapiens with 6 samples.

Results

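Claudins are the membrane proteins that build the strands of the tight junction, and the genes described here are CLDN1, CLDN2, CLDN3, CLDN4, CLDN7, CLDN10, CLDN11, CLDN12, CLDN15 and CLDN16 in HK-2 cells. They were chosen by symbol from a list of claudins, with 1 row of the deposited gene table for each, and make up 10 of the 24 claudin genes among its 58825 genes. Control libraries (n = 3) came from untreated HK-2 cells and OX-LDL libraries (n = 3) from HK-2 cells given 25 µg/ml oxidised low-density lipoprotein for 48 h, to find the genes that respond to a high lipid load. HK-2 is 1 human tubular epithelial line, immortalised with papillomavirus genes, and the cells were kept in low-serum medium before OX-LDL was added. Levels are FPKM (fragments scaled to the length of the gene's exons and to the library's mapped fragments), which are per length and so can be set side by side between genes. Values are mean ± SD of 3 libraries, and nothing in the labels says that the libraries came from separate experiments, so p-values measure the spread between these libraries only.

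A claudin spans the membrane and pairs with claudins of the neighbouring cell, closing the gap between them. Sealing claudins (CLDN1, CLDN3, CLDN4 and CLDN11 here) hold ions and solutes back, whereas pore-forming claudins (CLDN2, CLDN10, CLDN15 and CLDN16) let selected ions or water pass, so the mixture a cell makes sets what its junction lets through. In the nephron the leaky proximal tubule is known for CLDN2 and CLDN10, the thick ascending limb for CLDN16, and the collecting duct for CLDN4 and CLDN7. CLDN7 and CLDN12 have no agreed role and were kept out of both classes.

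The libraries held 62561347 to 76797607 estimated counts, in which 1 read pair adds about 4, so a gene under 12 counts (3 read pairs) was taken as not measurable in a library. The line is labelled tubular epithelial and is known as a proximal tubule line, but the defining markers of that segment were nearly absent. All 9 that could be read were under 1 FPKM in every library, LRP2, SLC22A6 and SLC22A8 were at 0, and the 9 summed to 0.21 to 0.694 FPKM in Control and 0.103 to 0.289 FPKM in OX-LDL libraries. Of 7 epithelial markers, KRT8, KRT18, KRT19, KRT7, CDH6 and EPCAM averaged 1 FPKM or more, and CDH1 (E-cadherin) lay at 0.0276 to 0.144 FPKM. The 7 summed to 143 to 171 FPKM in Control and 223 to 275 FPKM in OX-LDL libraries, so this sum was higher where claudins were lower, and its part in the claudin values was not tested. None of the 5 thick ascending limb markers passed 12 counts in any library. All 5 distal and collecting duct, 5 endothelial and 5 leukocyte markers were under 1 FPKM, while 1 of 5 fibroblast markers (LUM, 8.06 to 13.1 FPKM) and 1 of 4 podocyte markers (SYNPO) were higher. In such bulk RNA, fewer cells that make a transcript and less of it per cell cannot be told apart.

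Untreated HK-2 cells made mainly CLDN1. Its level was 453, 541 and 463 FPKM in the 3 Control libraries, and it ranked 34 of 19510 tested genes by mean Control FPKM. It contributed 81.2% ± 0.695 of the summed FPKM of the 10 claudins, between 80.4% and 81.7% in each library. CLDN16 came next with a share of 9.45% ± 0.55 and rank 516, and CLDN11 followed with 4.65% ± 0.637 and rank 1281. CLDN2, the leaky-tubule claudin, had 1.81% ± 0.647, CLDN12 had 1.71% ± 0.809 and CLDN4 had 0.853% ± 0.0811. CLDN15 made up 0.26% ± 0.043, and CLDN3, CLDN7 and CLDN10 lay under 0.05% each in every Control library.

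The order of the Control levels was CLDN1, CLDN16, CLDN11, CLDN2, CLDN12, CLDN4, CLDN15, CLDN3, CLDN7 and CLDN10. The FPKM of CLDN2 and CLDN12 overlapped between libraries, as did those of CLDN12 and CLDN4, so these neighbours were not told apart, and the order of CLDN3, CLDN7 and CLDN10 rests on at most 38 counts in a Control library. The FPKM behaved as if divided by the length of all annotated exons of a gene together. For CLDN12 these exons span 6741 bases but its longest coding transcript 3565, and for CLDN11 they span 3732 against 2169, so both levels are low per coding transcript. Scaled to the longest coding transcript, the Control share was 77.4% for CLDN1, 9.38% for CLDN16, 7.25% for CLDN11 and 2.94% for CLDN12. The other 14 claudin genes added 0.637 ± 0.102 FPKM in all, and with them counted CLDN1 still had 81.1%.

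**Figure D1:**
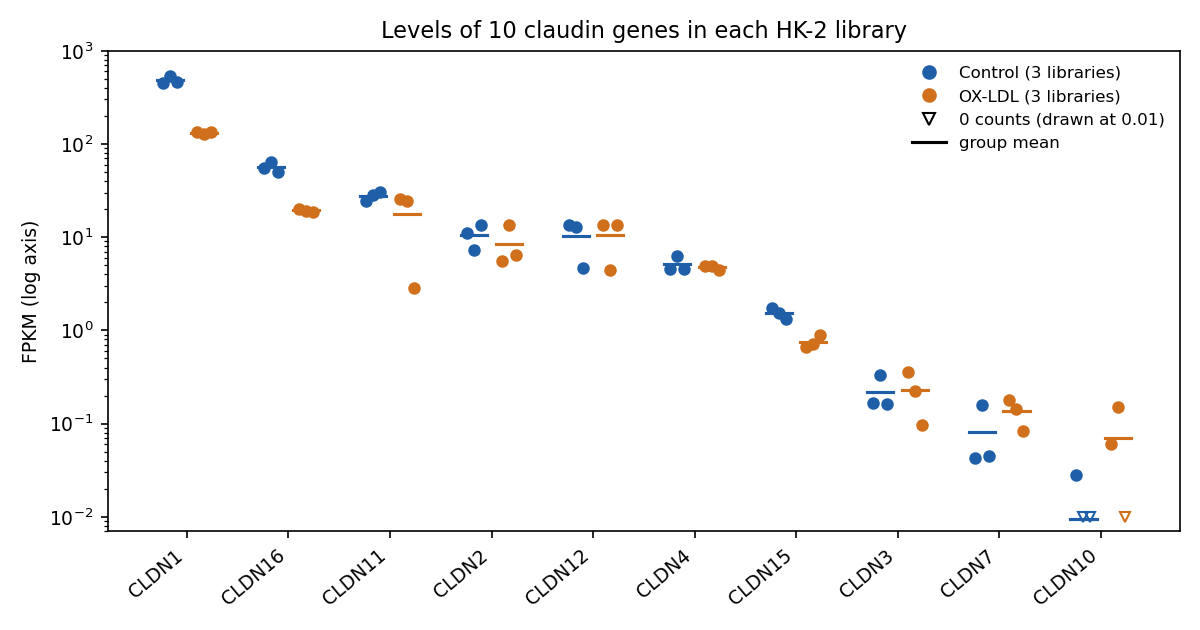
FPKM (log axis) of the 10 claudins in each library, ordered by mean Control level, with Control libraries in blue, OX-LDL libraries in orange and bars for group means; open triangles are libraries with 0 counts. CLDN1 and CLDN16 stand above the rest in Control and lie lower in all 3 OX-LDL libraries, and CLDN11 has 1 OX-LDL library at 2.85 FPKM.

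CLDN1, the most abundant sealing claudin, changed most. It measured 136, 127 and 135 FPKM in the OX-LDL libraries against 453, 541 and 463 FPKM in Control. All 3 OX-LDL libraries lay far under the lowest Control library. The level was 3.58-fold lower, at -1.84 ± 0.08 on the log2 scale (SE; 95% interval -2.03 to -1.65, adjusted p = 0.000209). No other of the 246 genes averaging 100 FPKM or more had a larger fall on the log2 scale. The gene (ENSG00000163347) lies at chr3:190305707-190322446 on the minus strand of GRCh38, and no other gene of the table overlaps it.

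The 250 bases before the RefSeq start of CLDN1 are shown because CLDN16, the other claudin that changed strongly, begins inside them on the opposite strand in the deposited table and in GENCODE 29. In RefSeq neither of the CLDN16 starts with a window lies inside them. The windows before those starts are chr3:190290111-190290360 and chr3:190387913-190388162, on the plus strand. The first lies beyond the far end of CLDN1, so CLDN16 read from that start runs across CLDN1 on the opposite strand. Whether counting used strand is not given in the sources used here, and the part of such reads in either value was not tested. The 250 bases lie at chr3:190322447-190322696 (GRCh38.p14, RefSeq) and are printed 5′ to 3′ on the minus strand, as CLDN1 is read. Capitals mark the 121 bases (190322541 to 190322661) that are also the first exon of a GENCODE 29 transcript of CLDN16, which runs the other way.
CLDN1 upstream window: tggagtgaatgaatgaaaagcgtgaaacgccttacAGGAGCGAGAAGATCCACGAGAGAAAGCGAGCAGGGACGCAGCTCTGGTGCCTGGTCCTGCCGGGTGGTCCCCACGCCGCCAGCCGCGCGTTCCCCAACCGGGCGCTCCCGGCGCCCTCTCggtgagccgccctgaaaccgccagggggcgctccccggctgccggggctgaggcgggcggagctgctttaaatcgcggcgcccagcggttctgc
This window holds the GC box letters GGGCGG 2 times, counted on both strands, a motif in 42.6% of the 35116 RefSeq windows of 250 bases. Its GC content is 68.8%, against a median of 58% over those windows. The E-box letters CAGGTG, which SNAI1 and SNAI2 are known to bind, do not occur in it and occur in 17.5% of all windows. Of the 15 windows of the 10 claudins, 1 holds CAGGTG, and it belongs to CLDN7. The TATA box letters TATAAA occur in none of the 15 and in 10.7% of all windows. The AP-1 letters TGANTCA (6.57% of all windows) occur in windows of CLDN2, CLDN4, CLDN15 and CLDN16 and not in that of CLDN1. These are letter matches only.

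The other sealing claudins gave no call. CLDN4, which blocks sodium in the collecting duct, had 4.56, 6.27 and 4.57 FPKM in Control and 4.93, 4.86 and 4.45 FPKM in OX-LDL libraries. The groups overlapped and the change was small, at -0.08 ± 0.14 on the log2 scale (SE; 95% interval -0.41 to 0.25, adjusted p = 0.755). CLDN3, its neighbour on chromosome 7, was barely present, at 0.163 to 0.33 FPKM in Control and 0.0978 to 0.36 FPKM in OX-LDL libraries, on 12 to 38 counts. Its interval ran from -1.31 to 1.46 on the log2 scale, so neither a rise nor a fall of 2-fold could be told at this depth.

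CLDN11, the claudin of myelin and of the Sertoli cell barrier, ranked behind CLDN1 and CLDN16 in level. It had 24.2, 28.3 and 30.6 FPKM in Control and 25.8, 24.4 and 2.85 FPKM in OX-LDL libraries. OX-LDL libraries 1 and 2 lay within the Control range, whereas library 3, on 964 counts, was at 0.111 times the median of the other 5. The log2 fold change was -0.62 (standard error 0.68, 95% interval -2.23 to 0.99, adjusted p = 0.600), and it was -0.11 without OX-LDL library 3. Such a gap was rare, since 21 of 6527 genes whose median reached 5 FPKM (0.322%) had 1 library under 0.25 times each other library, and for 3 of these 21 that library was OX-LDL library 3. The gene lies at chr3:170418865-170454733 on the plus strand, and the genes that overlap it had at most 8 counts.

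Among the pore-forming claudins, CLDN16 and CLDN15 were lower after OX-LDL. CLDN16, which carries magnesium and calcium in the thick ascending limb, had 55.2, 64.5 and 50.1 FPKM in Control. In OX-LDL libraries it had 20.3, 19.2 and 18.7 FPKM, far under the lowest Control value. The level was 2.85-fold lower (95% interval 2.42 to 3.36 fold), and the adjusted p was 0.000848. Its 5 segment markers, UMOD among them, were at or near 0, so it was measured here apart from the rest of that segment's genes.

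CLDN15, a sodium channel of the gut epithelium, had 1.74, 1.55 and 1.34 FPKM in Control and 0.663, 0.708 and 0.883 FPKM in OX-LDL libraries, on 142 to 446 counts. The groups did not overlap, the level was 2.01-fold lower (95% interval 1.43 to 2.83 fold) and the adjusted p was 0.0218. This call was less firm than those of CLDN1 and CLDN16, because leaving out Control library 1, Control library 2 or OX-LDL library 1 moved the adjusted p to 0.0684, 0.0732 and 0.0764. The gene lies at chr7:101232092-101238820 on the minus strand and no other gene of the table overlaps it.

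CLDN2, the cation and water pore of the proximal tubule, had 11, 7.30 and 13.5 FPKM in Control and 5.55, 13.5 and 6.52 FPKM in OX-LDL libraries. The highest values of the groups were alike and the groups overlapped. The log2 fold change was -0.28 (standard error 0.38, 95% interval -1.17 to 0.62, adjusted p = 0.676), and it was -0.78 without OX-LDL library 2, with an adjusted p of 0.114. CLDN2 (chrX:106900164-106930859, plus strand) overlaps MORC4 on the other strand, which had 10.3 to 16.3 FPKM, and whether the counting used strand is not given in the sources used here. CLDN10, the other pore of the proximal tubule and, as another isoform, of the thick ascending limb, was measurable only in OX-LDL libraries 1 and 2. Its counts were 9, 0 and 0 in Control and 16, 47 and 0 after OX-LDL, 2 libraries passed 12 counts, and with a mean of 0.0399 FPKM it was not tested. It overlaps DZIP1 on the other strand, which had 4.33 to 5.35 FPKM.

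CLDN12, a widely made claudin that lacks the usual anchor for ZO proteins, had 13.5, 12.8 and 4.64 FPKM in Control and 13.6, 4.45 and 13.4 FPKM in OX-LDL libraries. Each group held 1 low library, Control library 3 at 0.346 and OX-LDL library 2 at 0.332 times the median of the other 5, and the remaining 4 lay between 12.8 and 13.6 FPKM. The log2 fold change was 0.06 (standard error 0.52, 95% interval -1.18 to 1.29, adjusted p = 0.959), and it ran from -0.30 without Control library 3 to 0.42 without OX-LDL library 2. A pair of libraries both under 0.5 times every other was seen for 44 of the 6527 genes (0.674%). Its span at chr7:90383721-90513402 overlaps GTPBP10 and CDK14 on the same strand. GTPBP10 had 4.67, 2.93 and 2.02 FPKM in Control and 1.69, 1.65 and 3.78 FPKM in OX-LDL libraries, CDK14 stayed between 4.33 and 5.23 FPKM, and the part of either in the CLDN12 values was not tested. CLDN7, a claudin of the collecting duct that binds EPCAM, had 10, 38 and 11 counts in Control and 34, 34 and 21 after OX-LDL. It was thus under 12 counts in Control libraries 1 and 3. Its log2 fold change was 0.69 (95% interval -0.79 to 2.17, adjusted p = 0.519), and it was 1.52 without Control library 2, with an adjusted p of 0.173. ELP5, at 4.45 to 7.79 FPKM, overlaps it on the other strand.

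Of the 10 claudins, 9 reached a mean of 0.1 FPKM and were tested, and 3 of the 9 (33.3%) had an adjusted p under 0.05, against 15.3% of all 19510 genes tested. All 3 were lower, a direction called for 7.42% of all genes, and no claudin was called higher by edgeR, DESeq2 or limma, with 0 higher at an unadjusted p under 0.05. The same 3 passed the limits for DEGs (fold over 2 or under 0.5 with an unadjusted p under 0.05), which 6.36% of all genes passed, and 3.16% as downregulated. The groups did not overlap for the same 3 claudins (33.3%), against 37.2% of all genes and 20.5% on the lower side. For non-overlap the share in claudins was thus close to that of all genes in either direction. It was above that of the lower side, on 3 claudins only. The median log2 fold change of the 9 was -0.28, and the median size of the change was 0.62 against 0.33 over all genes tested. The 0.62 was the value of CLDN11 (standard error 0.68), whose log2 fold change was -0.11 without OX-LDL library 3. The 10 claudins were chosen with earlier results of these data known, so a larger share or change among them is a description and not a test. Of the other claudins, 4 were tested and 0 were called.

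**Figure D2:**
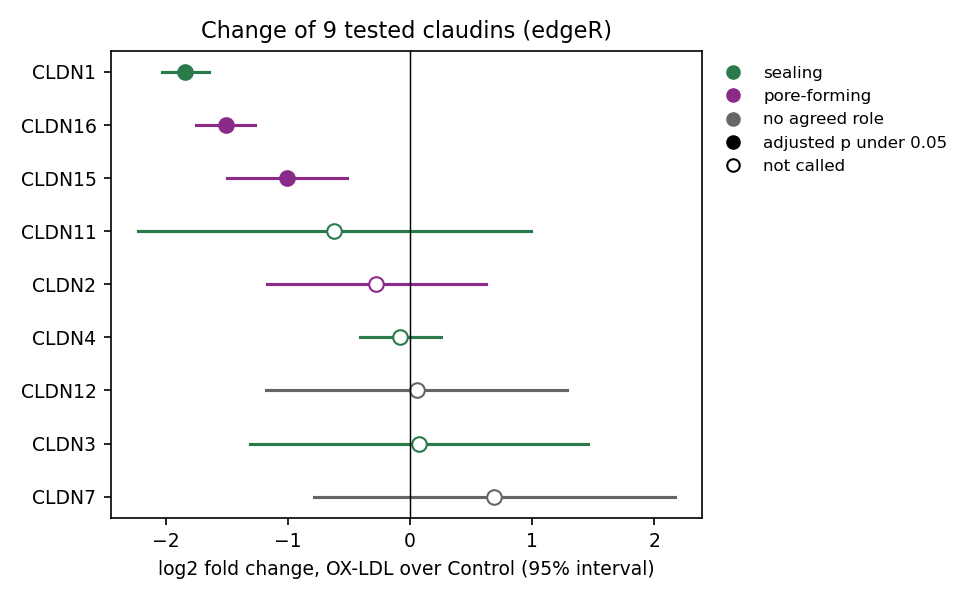
Log2 fold change of OX-LDL over Control with its 95% interval for the 9 tested claudins, coloured by role, filled where the adjusted p was under 0.05. CLDN1 (-1.84), CLDN16 (-1.51) and CLDN15 (-1.01) lie left of 0, and the intervals of the other 6 cross it.

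The summed FPKM of the 10 claudins was 563, 662 and 568 in Control and 208, 194 and 182 in OX-LDL libraries. The mean of the sum went from 598 ± 55.9 to 195 ± 12.8 FPKM, and CLDN1 and CLDN16 accounted for 96.8% of that difference. Without them, the remaining 8 summed to 55.2, 56.8 and 54.8 FPKM in Control and 51.1, 48.5 and 28.3 FPKM in OX-LDL libraries, the last being the library with little CLDN11.

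The mixture changed with CLDN1. Its share was 65.6%, 65.1% and 74.2% in the OX-LDL libraries (68.3% ± 5.12), under every Control share. The share of CLDN16 was 9.98% ± 0.25 after OX-LDL and 9.45% ± 0.55 in Control, since it was lower nearly in step with the sum. CLDN4, whose level was not called, had a share of 2.37% to 2.50% after OX-LDL and of 0.804% to 0.947% in Control. CLDN11 had 12.4%, 12.6% and 1.56% after OX-LDL, against 4.28% to 5.39% in Control. CLDN2 had 4.40% ± 2.27 and CLDN12 5.40% ± 2.72 after OX-LDL. A share of a sum can be larger because another member is lower, and these shares are descriptions without a test.

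**Figure D3:**
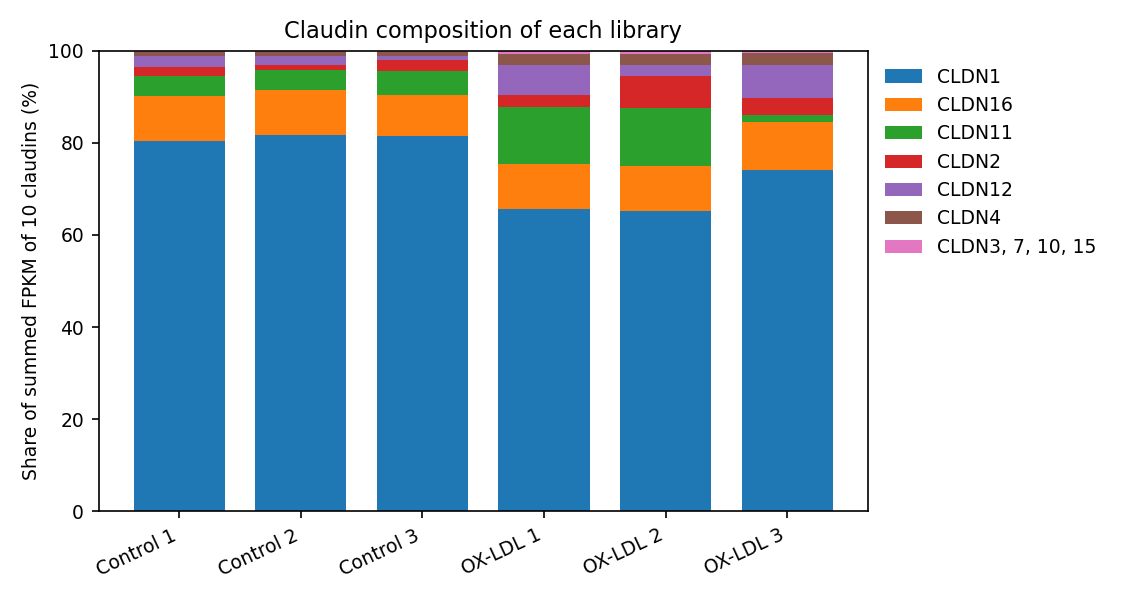
Share (%) of each claudin in the summed FPKM of the 10 claudins, 1 bar for each library. CLDN1 fills 80.4% to 81.7% of the Control bars and 65.1% to 74.2% of the OX-LDL bars, while the CLDN16 band keeps a similar width.

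The summed FPKM of both functional classes was lower after OX-LDL, that of the sealing class by more. Sealing claudins summed to 482, 576 and 498 FPKM in Control and 167, 156 and 143 FPKM in OX-LDL libraries. Pore-forming claudins summed to 68.0, 73.4 and 64.9 FPKM in Control and 26.6, 33.6 and 26.1 FPKM in OX-LDL libraries. CLDN16 made up 56.6 of the mean of 68.7 FPKM in Control and 19.4 of 28.8 FPKM after OX-LDL. Its FPKM cannot be split between coding and non-coding transcripts, so the part of the pore-forming sum that encodes protein is not known. The groups did not overlap in either sum. Counted by gene instead of by sum, the classes stood the other way, but on few genes. For the 4 sealing claudins, 1 was called (25.0%, against 15.3% of all genes tested). Their median log2 fold change was -0.35, between CLDN4 (-0.08) and CLDN11 (-0.62, or -0.11 without OX-LDL library 3). For the 3 pore-forming claudins that were tested, 2 were called (66.7%). Their median of -1.01 was the value of CLDN15 alone, whose call was lost in 3 of 6 fits that left out 1 library.

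The ratio of pore-forming to sealing FPKM was 0.141, 0.127 and 0.130 in Control and 0.159, 0.215 and 0.183 in OX-LDL libraries, so that every OX-LDL value lay above all Control values. The pore-forming share of both classes together was 11.7% ± 0.559 in Control and 15.6% ± 2.02 after OX-LDL, and the mean log2 ratio differed by 0.47, a ratio 1.39-fold higher. This direction rested on CLDN1. Without it the sealing sum was 28.9, 34.9 and 35.3 FPKM in Control and 31.0, 29.5 and 7.40 FPKM in OX-LDL libraries, and the log2 ratio turned to a difference of -0.47, with 1.23, 1.07 and 0.877 in Control and -0.224, 0.187 and 1.82 in OX-LDL libraries. OX-LDL library 3, where CLDN11 was low, was the one above the Control values and the other two lay below them. Without CLDN16, the pore-forming sum was 12.7, 8.85 and 14.8 FPKM in Control and 6.27, 14.4 and 7.40 FPKM in OX-LDL libraries, which overlapped, and the difference of the log2 ratio was 1.30. With both left out it was 0.36 and the groups overlapped. The ratio is one of transcripts, and its CLDN16 part cannot be split into coding and non-coding ones. No p-value is given for it because the members were chosen with earlier results known.

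**Figure D4:**
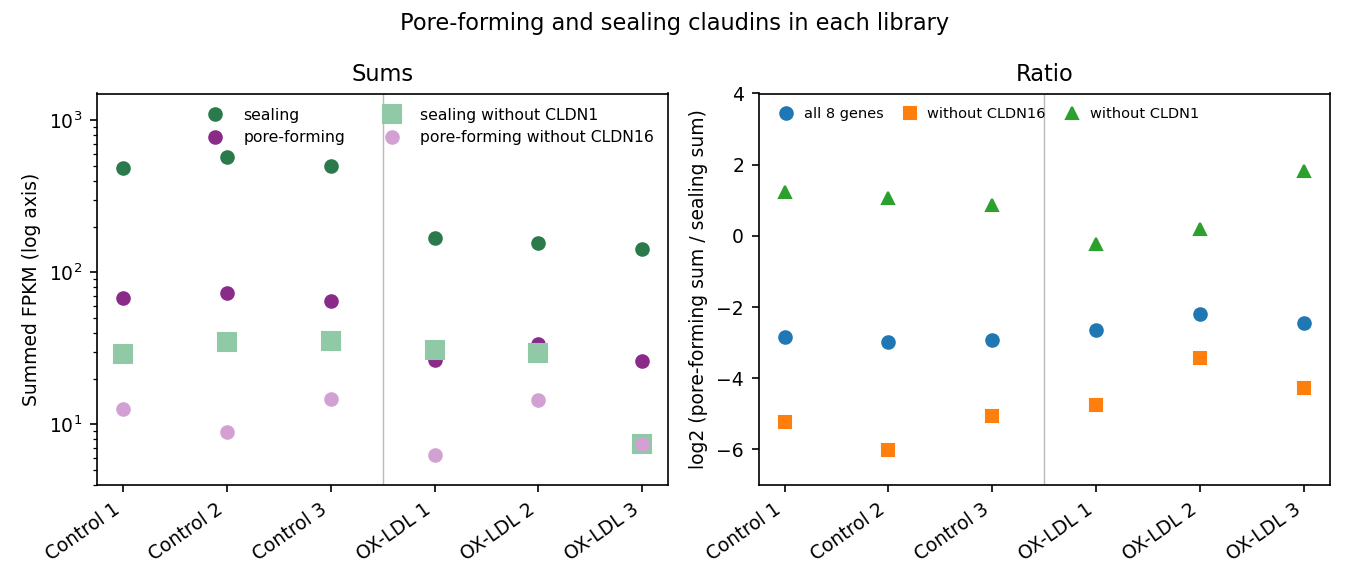
Left, summed FPKM (log axis) of sealing and pore-forming claudins in each library, also without CLDN1 or CLDN16; right, log2 of the pore-forming over the sealing sum for all 8 genes and with CLDN16 or CLDN1 left out. Both full sums are lower in OX-LDL libraries, and the ratio is higher with all 8 genes but not without CLDN1.

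CLDN1 and CLDN16, the pair with the strongest changes, are neighbours on chromosome 3. In the table CLDN16 (ENSG00000113946, plus strand) starts at 190322541 and ends at 190412143, leaving 94 bases between its start and that of CLDN1. In GENCODE 29 that start belongs to a processed transcript of 578 bases without a reading frame, whereas the longest coding transcript, of 3273 bases, starts at 190387872, 65.4 kb from the start of CLDN1. Both share 268 exon bases, and since the table holds 1 value for a gene, the FPKM of CLDN16 cannot be split between them. The CLDN16 to CLDN1 FPKM ratio was 0.122, 0.119 and 0.108 in Control and 0.149, 0.152 and 0.138 in OX-LDL libraries. The fall of CLDN16 was thus somewhat smaller, with a mean log2 ratio higher by 0.33 after OX-LDL and no overlap between groups.

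**Figure D5:**
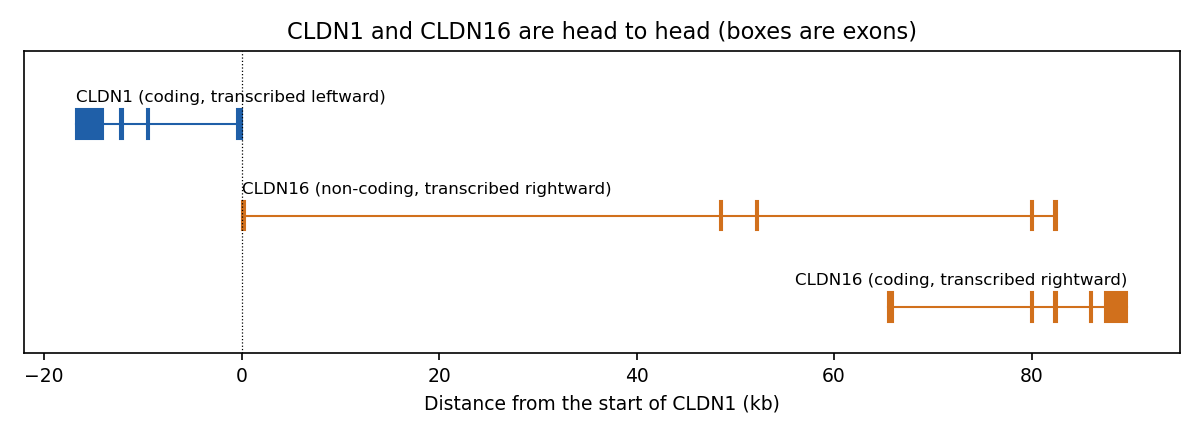
Exons (boxes) of the coding CLDN1 transcript (blue) and of a non-coding and a coding CLDN16 transcript (orange), by distance in kb from the start of CLDN1 in the table. The non-coding CLDN16 transcript starts beside CLDN1 and runs away from it, and the coding one starts 65.4 kb away.

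A claudin works with scaffolds inside the cell and with other membrane proteins of the junction. Of 30 such partner genes, 27 were tested, and 6 (22.2%, against 15.3% of all genes) were called, 4 lower and 2 higher. CGN (cingulin, which ties the junction to actomyosin) had 4.51, 5.82 and 4.11 FPKM in Control and 1.66, 2.26 and 1.93 FPKM in OX-LDL libraries, 2.41-fold lower with an adjusted p of 0.00681. MAGI1, a membrane scaffold, was 1.63-fold lower (5.47 ± 0.339 to 3.27 ± 0.186 FPKM, adjusted p = 0.00516). MPDZ, a scaffold that binds claudin tails, was 1.30-fold lower (adjusted p = 0.0284), while PALS1, a polarity scaffold listed as MPP5 in the table, and F11R, a junctional adhesion molecule, had log2 fold changes of 0.56 (adjusted p = 0.0175) and 0.43 (adjusted p = 0.0371). The calls of CGN and MAGI1 were kept in 6 of 6 fits that left out 1 library, and those of PALS1, MPDZ and F11R in 2, 1 and 1, with adjusted p up to 0.0642, 0.103 and 0.113. PALS1 kept its call without Control library 1 or OX-LDL library 2, MPDZ without OX-LDL library 2 and F11R without Control library 1. The remaining call was that of PARD6A, a polarity protein named after its values were seen, which was 2.73-fold lower (adjusted p = 0.0412) and lost its call without any 1 of the 6 libraries. ZO-1 (TJP1), the main scaffold that claudins bind, and OCLN (occludin) were looked up after the values were seen. TJP1 had 15.4 to 17.3 FPKM in Control and 13.7 to 16.8 FPKM in OX-LDL libraries (log2 fold change -0.01, 95% interval -0.24 to 0.23). OCLN lay at 0.622 to 1.03 FPKM in Control and 0.312 to 0.617 FPKM in OX-LDL libraries (log2 fold change -0.71, adjusted p = 0.174).

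Of 25 genes known to bind or regulate claudins, 18 were tested and 4 (22.2%, against 15.3% of all genes) were called, 2 in each direction. CD81, a tetraspanin that joins CLDN1 as the entry receptor of hepatitis C virus, had 6.25, 6.05 and 5.37 FPKM in Control and 8.00, 9.48 and 9.37 FPKM in OX-LDL libraries (log2 fold change 0.63, adjusted p = 0.0115), and its call was kept in all 6 fits that left out 1 library. EPHA2, a receptor kinase that phosphorylates CLDN4, had 44.0, 55.6 and 39.3 FPKM in Control and 30.0, 21.4 and 25.0 FPKM in OX-LDL libraries (log2 fold change -0.83, adjusted p = 0.0191). Its call was lost without Control library 2 or OX-LDL library 3, with adjusted p up to 0.0719. WNK1, a kinase of salt transport, had a log2 fold change of -0.28 (adjusted p = 0.0440), and its call was lost on leaving out any 1 of the 6 libraries, with adjusted p up to 0.137. SNAI2, a repressor of claudin genes, had a log2 fold change of -0.64 (adjusted p = 0.0709). Its relative SNAI1, looked up after the values were seen, had 1.75, 2.41 and 3.01 FPKM in Control and 3.82, 3.84 and 3.69 FPKM in OX-LDL libraries (log2 fold change 0.70, adjusted p = 0.0736). Neither passed the threshold in edgeR with all 6 libraries, SNAI1 passed it without Control library 3 (adjusted p = 0.0455), and both passed it in DESeq2 (adjusted p = 0.018 for SNAI2 and 0.0129 for SNAI1). EPCAM, which holds CLDN1 and CLDN7 at the membrane, had 48.6 to 55.4 FPKM in Control and 51.2 to 56.7 FPKM in OX-LDL libraries.

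The other 14 claudins were near the limit of detection. CLDN8, CLDN17, CLDN19, CLDN22, CLDN25 and CLDN34 had 0 counts in all 6 libraries, which allows up to 12 counts in each, so CLDN19, the known partner of CLDN16 in the thick ascending limb, was not detectable where CLDN16 itself was high. Only CLDN18, CLDN20, CLDN23 and CLDN24 could be tested. Their log2 fold changes were 0.12, 0.99, -0.16 and -0.14, and the largest, that of CLDN20, had a 95% interval of -0.59 to 2.57 and an adjusted p of 0.375. CLDN24 passed 12 counts in only 1 library, at 4, 14 and 9 counts in Control and 10, 2 and 11 after OX-LDL. Its 95% interval ran from -2.12 to 1.84. None of these tested claudins was called by edgeR, DESeq2 or limma, with 0 at an unadjusted p under 0.05.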

How the data were processed

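Poly(A) RNA of HK-2 cells was sequenced as 3 Control and 3 OX-LDL strand-marked paired-end libraries. The authors deposited, for each of 58825 genes, an estimated count and an FPKM in each library. Their processing notes name cutadapt 1.9, HISAT2 2.0.4, StringTie 1.3.4d, edgeR, DESeq2 and the build GRCh38, and whether reads were counted by strand is not given in the sources used here. The deposited estimated counts are whole numbers in which multiples of 4 are over-represented, and the intervals here cover the spread between libraries, not amplification. The 19510 genes averaging 0.1 FPKM or more were tested on the counts with edgeR 4.0.16 (TMM normalisation, quasi-likelihood test, group as the only term; R 4.3.3), and p-values were adjusted by Benjamini-Hochberg over all of them. Called means an adjusted p under 0.05. Standard errors are the log2 fold change over the square root of F. Shares, sums and ratios use FPKM and have no test, and an exact permutation test of 3 against 3 libraries cannot go below 0.1. Alternatives were DESeq2 1.42.0, limma 3.58.1 on log2(FPKM + 0.1) and log2(FPKM + 1), DESeq2 size factors, other minimum levels, counts divided by 4, a replicate block, leaving out each library, and other claudin classes. The tests were checked on simulated counts. Gene models are from GENCODE 29, whose coordinates equal those of the table for 81.3% of 58597 shared genes. Of the partner genes and of the regulators, the 5 with the smallest p were named, beside all 10 claudins, the other claudins that could be tested and defining markers. Some listed genes are counted with their lists but not reported here by name. GGT1 has 2 rows in the table and was left out of the markers. The members, lists and classes were chosen with earlier results of these data known.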

Additional observations from a re-analysis of the deposited data

How the results depend on the processing

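CLDN1, CLDN16 and CLDN15 were the claudins called under edgeR, DESeq2 and limma, and the count of called claudins stayed within 1.5 times 3 in all 14 alternatives. CLDN15 lost its call under the replicate block (adjusted p = 0.0736) and in 3 of 6 fits that left out 1 library, and no other claudin changed its call. The calls over all genes numbered 2991, fell to 1636 with the replicate block, and ranged from 1161 to 2943 with 1 library left out. Same-numbered libraries did not deviate together (correlations -0.0944, -0.0753 and -0.0391 over 12259 genes), so the numbers were not taken as pairs. Called partner genes ranged from 2 to 6 with 1 library left out (2 without Control library 2, Control library 3, OX-LDL library 1 or OX-LDL library 3), and called regulators, 4 in the report, from 1 to 3 (1 without Control library 2 or OX-LDL library 3), with 7 by DESeq2 and 1 with the replicate block. The Control share of CLDN1 was 89.7% with CLDN16 left out and 77.4% per coding transcript length, an alternative chosen after seeing the data. The difference of the pore-forming to sealing log2 ratio was 1.30 without CLDN16, 0.73 with CLDN7 counted as sealing and CLDN12 as pore-forming, and -0.47 without CLDN1. For CLDN3, CLDN7 and CLDN10 the depth limits what can be told.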
